A study of Mus musculus with 45 samples.

Results

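The genes described here are 37 mouse genes of nucleotide synthesis, out of 54838 genes counted. They were taken by symbol from a list chosen with earlier results of these data known. It holds enzymes of *de novo* pyrimidine and purine synthesis, of folate one-carbon metabolism and of deoxynucleotide supply, with nucleoside salvage enzymes and transporters. All 37 matched 1 gene identifier each, and all 37 were expressed enough to be tested in every comparison below. Their RNA was measured by sequencing in 15 *PyMT*+ mouse mammary tumour cell lines, with 3 technical repeats of each line and so 45 libraries. Polyomavirus middle T antigen (*PyMT*) is the oncogene that drives mammary tumours in these mice, from a promoter active in the mammary epithelium. YEJG and YEJH are the parental lines, from primary mammary gland tumours, and each is a single line. The other 13 lines descend from them. Transplantation into the mammary fat pad gave 1 fat-pad line from YEJG (YEJG-FP) and 5 from YEJH (YEJH-FP1 to YEJH-FP5). After resection of the primary tumour, lung micrometastases gave 2 lung lines from YEJG (YEJG-M1 and YEJG-M2) and 5 from YEJH (YEJH-M1 to YEJH-M5). All lines were lysed near confluence after 24 h in culture, so the site is where the cells were taken from and not where their RNA was made. The line was the unit of replication, since repeats of 1 line measure technical spread only. The mouse that each line came from is not given in the labels, so the lines were treated as independent without a check.

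Cells make pyrimidine nucleotides from glutamine, bicarbonate and aspartate, and purine nucleotides by building the ring stepwise on phosphoribosyl pyrophosphate, with formyl groups from the folate cycle. Ribonucleotide reductase turns ribonucleoside diphosphates into deoxynucleotides, and thymidylate synthase adds the methyl group of thymidine. Salvage kinases and equilibrative transporters let cells reuse nucleosides from outside. Many of these genes are known for high expression in dividing tumour cells and for induction by MYC, mTORC1 and ATF4.

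Between 9723860 and 16943900 reads per library fell on genes, and each member had between 82 (*Rrm2b*) and 8829 (*Rrm1*) reads per library. Defining markers of host cells other than fibroblasts were at or near 0. The leukocyte markers *Ptprc*, *Cd3e*, *Lyz2*, *Adgre1* and *Itgam* had at most 10 reads in every library. So had 5 of 5 endothelial, 4 of 4 adipocyte and 5 of 6 lung epithelial markers (all but *Foxj1*). *Sftpc*, *Sftpb* and *Sftpa1* were at 0 in all 45. The leukocyte markers *Csf1r* and *S100a8* were detected in every line, at 5.19 to 68.4 and 7.36 to 72.2 normalised counts. The 6 fibroblast markers summed to 805 normalised counts in YEJG-M1, 217 in YEJG-M2 and 27.2 to 85.4 in the other lines. The 8 mammary epithelial markers summed to between 114854 and 152142 normalised counts in YEJH-derived lines. They summed to 96251 in YEJG-FP, 53524 in YEJG-M1 and 52570.1 in YEJG-M2. The basal keratin *Krt5* had at most 10 reads in any library. The library names start with either of 2 prefixes, which are called runs A and B here, and every line had libraries in both. In the library of YEJH-M3 repeat 2, 43.3% of reads fell on no gene or were set aside, against at most 36.0% in the others. Without it, chosen as an alternative after seeing the data, 23 members were called between origins and 0 between sites. With it 22 and 0 were, against 40.8% and 0.0% of all genes. For repeat 1 of YEJG-M1, the library name gives the line as YEJH-M1, and its title was followed. It had 2944 normalised counts of *Slc29a1*, against 2874 and 2497 in the other YEJG-M1 libraries and 1395 to 1709 in those of YEJH-M1. For *Nt5e* it had 486, against 570 and 567 in YEJG-M1 and 1737 to 1900 in YEJH-M1.

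The start regions of 4 members whose derived lines differed by origin are shown, to set the motifs counted below in their sequence. Each is the 250 bases before a gene start in RefSeq (build GRCm38.p6), printed 5′ to 3′ on the strand of the gene, with matches to the 5 motifs searched in capitals. *Atic*, *Dctpp1* and *Rrm1* were higher in YEJG-derived lines, and *Nt5e* was lower.
*Atic* upstream window, chr1:71556906-71557155, forward strand: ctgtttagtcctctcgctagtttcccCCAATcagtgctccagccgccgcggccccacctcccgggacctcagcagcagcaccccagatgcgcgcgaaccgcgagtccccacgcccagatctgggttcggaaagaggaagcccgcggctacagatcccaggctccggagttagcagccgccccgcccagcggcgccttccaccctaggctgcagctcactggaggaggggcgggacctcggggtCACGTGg
*Dctpp1* upstream window, chr7:127260668-127260917, reverse strand: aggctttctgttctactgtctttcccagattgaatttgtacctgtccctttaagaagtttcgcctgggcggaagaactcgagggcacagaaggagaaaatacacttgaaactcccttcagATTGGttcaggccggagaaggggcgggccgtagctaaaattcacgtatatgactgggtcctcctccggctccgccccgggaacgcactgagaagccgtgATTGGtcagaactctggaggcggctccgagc
*Rrm1* upstream window, chr7:102441445-102441694, forward strand: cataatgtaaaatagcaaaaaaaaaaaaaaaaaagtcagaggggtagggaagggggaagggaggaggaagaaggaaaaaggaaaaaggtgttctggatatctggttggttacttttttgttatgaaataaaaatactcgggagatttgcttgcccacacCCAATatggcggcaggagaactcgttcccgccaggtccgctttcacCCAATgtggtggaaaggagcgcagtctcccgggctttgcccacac
*Nt5e* upstream window, chr9:88327359-88327608, forward strand: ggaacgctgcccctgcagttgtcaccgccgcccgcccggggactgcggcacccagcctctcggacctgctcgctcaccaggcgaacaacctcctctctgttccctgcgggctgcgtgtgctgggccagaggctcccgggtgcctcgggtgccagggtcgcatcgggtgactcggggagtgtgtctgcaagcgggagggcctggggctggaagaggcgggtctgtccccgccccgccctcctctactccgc
The *Atic* window holds CACGTG, the E-box bound by MYC and related factors, starting 7 bases before the gene start, and CCAAT, the NF-Y box, on the printed strand. The *Dctpp1* window holds 2 matches to CCAAT, both on the opposite strand, so that the printed strand reads ATTGG, and the *Rrm1* window holds 2 on the printed strand. No letters of the 5 motifs were found in the *Nt5e* window. The windows shown are examples and do not stand for the other members. Those of *Cad*, *Umps*, *Dut*, *Adsl* and *Shmt2*, also higher in YEJG-derived lines, held no match. Nor did those of *Tk1* and *Dck*, which were lower. Of the 37 members, 34 had a window and 48 windows were listed, since some genes have several starts. CACGTG stood in 14.6% of member windows against 6.02% of all 32851 windows, and CCAAT in 29.2% against 33.8%. The E2F letters TTTGGCGC stood in no member window against 0.417% of all, and TTTCCCGC in 2.08% (*Ppat*) against 0.895%. TGATGNAA, which ATF4 and C/EBP can bind, stood in 2.08% (*Prps1*) against 3.45%. Both strands were searched, and no match overlapped another in the windows printed. Among the 17 members with a window that were higher in YEJG-derived lines, 5 had CACGTG and 9 had CCAAT, against 1 and 4 of the other 17. A gene was counted if any of its windows matched, so genes with several starts, such as *Slc29a1* and *Dctd*, had more chances. The higher members include *Nme1*, *Tyms*, *Gart* and *Prps1*, whose calls ended in some alternatives. These are matches of letters and were not tested.

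Most members differed little between lines. The coefficient of variation of the 15 line means, in normalised read counts, ran from 3.71% for *Prps2* to 39.9% for *Slc29a1*, with a median of 11.4% over the members. Between repeats of a line the same measure averaged 5.60% in the median member. *Slc29a1*, *Nt5e*, *Dctpp1*, *Mthfd2* and *Tk1* varied most, at 39.9%, 31.3%, 23.5%, 20.4% and 20.3%. Per kb of exon, the highest mean levels over the 15 lines were those of *Aprt* (1805 normalised counts per kb), *Rrm2* (1537) and *Impdh2* (1122). *Rrm2b* (20) and *Slc29a2* (32.3) were the lowest per kb. Across the 15 lines the pair that varied most alike was *Nme1* and *Dctpp1* (Pearson's r = 0.949), and *Dctd* and *Tk1* varied most in opposition (r = -0.877). These are 2 of 666 pairs with a median r of 0.258, and the lines share 2 parents and their libraries.

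**Figure D1:**
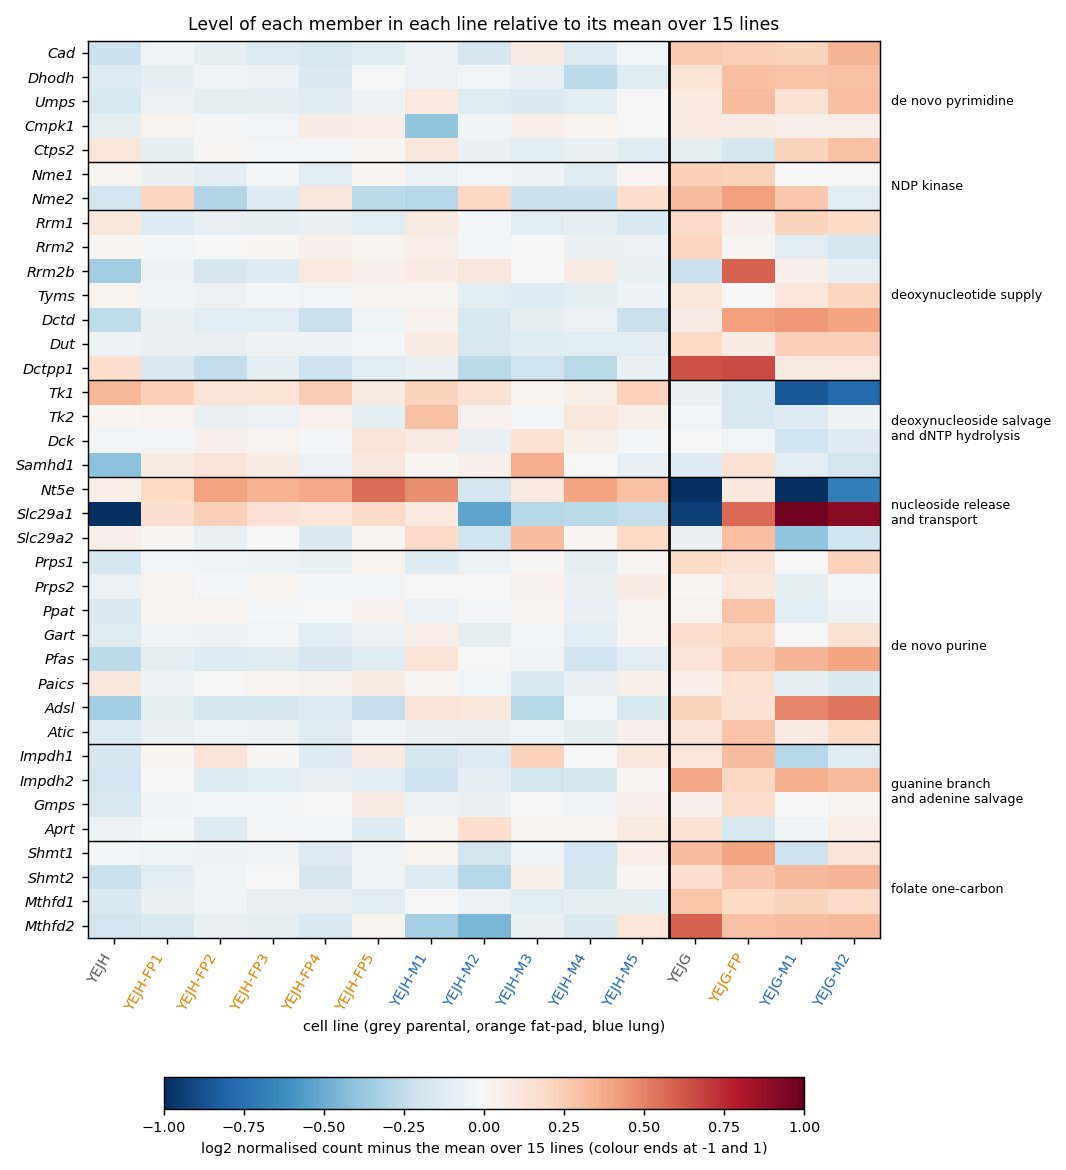
Each row is a member and each column a cell line. Colour gives the log2 of the mean normalised count of the line's 3 libraries, minus the mean over the 15 lines, and black lines part the role groups and the 2 origins. The rows of *Cad*, *Umps*, *Pfas*, *Atic*, *Shmt2* and *Mthfd1* are redder in the 4 lines of YEJG origin, while *Tk1* and *Nt5e* are bluer in YEJG-M1 and YEJG-M2.

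Parental origin was compared among the 13 derived lines, 3 from YEJG against 10 from YEJH, with site as a covariate. Of the 37 members, 22 passed an adjusted p of 0.05, where 40.8% of all 15815 genes tested did. In YEJG-derived lines 19 members were higher, against 19.2% of all genes, and 3 were lower, against 21.6% of all genes. The median log2 fold change was 0.16 over the members and 0.0032 over all genes. Since the list was chosen with earlier results of these data known, these shares are a description and not a test of the pathway. The 19 were spread over *de novo* pyrimidine synthesis (3 of 5), deoxynucleotide supply (5 of 7), *de novo* purine synthesis (5 of 8), folate one-carbon genes (3 of 4) and 1 each of the remaining groups except salvage. *Tk1*, *Dck* and *Nt5e* were the 3 that were lower. The line means of the origins did not overlap for 15 members, of which 14 were higher in YEJG-derived lines, against 24.2% and 11.4% of all genes. Mammary epithelial markers were lower in YEJG-derived lines for 6 of 7 tested, and 4 of 4 fibroblast markers were higher, with a summed fibroblast level, in normalised counts, of 805 for YEJG-M1 and 217 for YEJG-M2, against 83.8 in YEJG-FP and 36.5 to 85.4 in YEJH-derived lines. Of the 6 fibroblast markers *Lum* was at 0 in all libraries and *Dcn* had at most 10 reads in any. Their part in the differences was not tested, and in bulk RNA a change in the share of a kind of cell and a change in RNA per cell cannot be told apart. In fat-pad lines alone YEJG-FP is the only YEJG line, and the test takes its spread from the 5 YEJH lines. Among members not called over all derived lines, the log2 fold changes there included 0.61 (*Rrm2b*), 0.44 (*Shmt1*), 0.32 (*Slc29a2*) and 0.27 (*Impdh1*). Others were 0.25 (*Ppat*), 0.16 (*Gmps*) and -0.17 (*Ctps2*). These values rest on YEJG-FP alone. With only 3 YEJG-derived lines from 1 parental line, origin cannot be told apart from any other property of these lines.

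**Figure D2:**
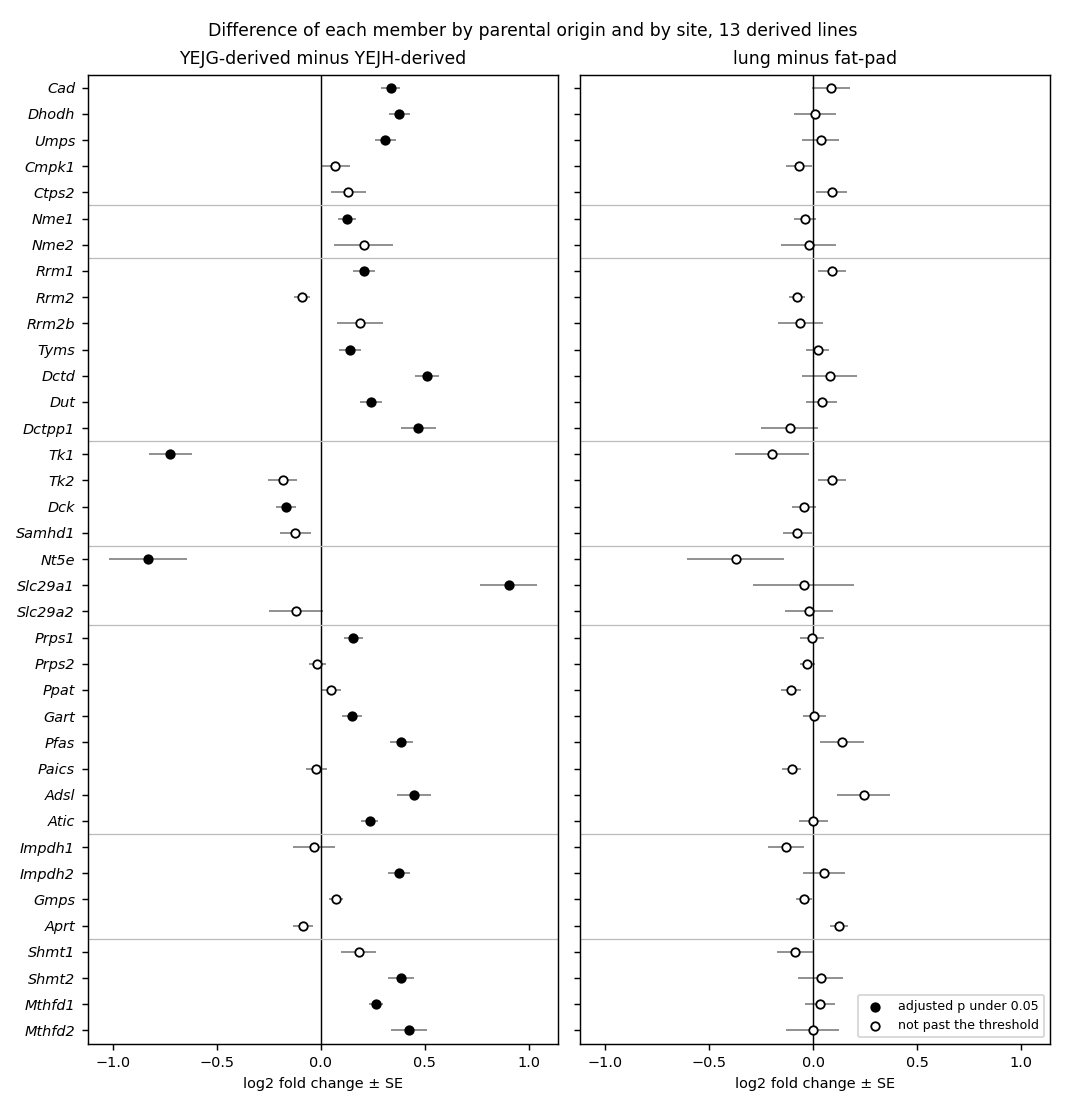
Each point is the log2 fold change of a member, with its SE as a bar, for YEJG-derived against YEJH-derived lines on the left and lung against fat-pad lines on the right, both over 13 lines. Filled points passed an adjusted p of 0.05 (22 on the left, 0 on the right), and grey lines part the role groups.

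Of the 5 *de novo* pyrimidine genes, 3 were higher in YEJG-derived lines, none was lower and 2 did not pass. *Cad*, which encodes the enzyme of the opening steps, had 5502 in YEJG-FP, 5464 in YEJG-M1 and 5904 in YEJG-M2, in normalised counts. The 10 YEJH-derived lines ran from 4159.5 to 4934 with a median of 4341, and the parental lines had 5611 in YEJG and 4015 in YEJH. Values given for YEJG and YEJH are those of the parental lines throughout. The lines of both origins did not overlap (log2 fold change 0.34, SE 0.045, edgeR adjusted p = 0.000108). *Dhodh*, the mitochondrial dihydroorotate dehydrogenase, had 416 in YEJG-FP, 411 in YEJG-M1 and 413 in YEJG-M2. In YEJH-derived lines it ran from 282 to 336 with a median of 322, with 371 in YEJG and 307 in YEJH, again without overlap between derived lines (log2 fold change 0.38, SE 0.05, edgeR adjusted p = 0.000103). The 3 YEJG-derived lines averaged 413 ± 2.85 and the 10 YEJH-derived lines 318 ± 15.9 normalised counts of *Dhodh* (mean ± SD over lines). *Umps*, which makes UMP, had 2875 in YEJG-FP, 2575 in YEJG-M1 and 2842 in YEJG-M2. Its YEJH-derived lines ran from 2087 to 2469.7 with a median of 2159, and its parental lines had 2467 in YEJG and 2073 in YEJH. The origins did not overlap here either (log2 fold change 0.31, SE 0.052, edgeR adjusted p = 0.000482). The kinase gene *Cmpk1* and the CTP synthetase gene *Ctps2* did not pass, with log2 fold changes of 0.07 and 0.13. *Ctps2* passed without the line YEJG-FP, at a log2 fold change of 0.30 (edgeR adjusted p = 0.0015). In fat-pad lines alone the value was -0.17.

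Of the nucleoside diphosphate kinases, *Nme1* was called higher in YEJG-derived lines and *Nme2* was not called. They lie on the same strand of chromosome 11 with 502 bp between them (GRCm39), and a read-through gene model spans both. *Nme1* had 3207 in YEJG-FP, 2729 in YEJG-M1 and 2733 in YEJG-M2, while YEJH-derived lines ran from 2509 to 2757 with a median of 2625 and the parental lines had 3222 in YEJG and 2772 in YEJH. YEJG-FP was above all YEJH-derived lines, and YEJG-M1 and YEJG-M2 were within their range. The call (log2 fold change 0.12, SE 0.043, edgeR adjusted p = 0.0344) ended when single lines were left out, with adjusted p = 0.426 without YEJG-FP, 0.0526 without YEJH-FP1, 0.0507 without YEJH-FP2 and 0.0568 without YEJH-M4. *Nme2* had 1778 in YEJG-FP, 1609 in YEJG-M1 and 1240.4 in YEJG-M2, and YEJH-derived lines ran from 1089 to 1553 with a median of 1188, with 1657 in YEJG and 1169 in YEJH. These means followed the runs: lines with 2 of their 3 libraries in run A lay between 1449.8 and 1778, and lines with 1 between 1089 and 1240. Run A libraries had 1754 to 2445 normalised counts of *Nme2* and run B libraries 608 to 790.0, without overlap. *Nme2* was not called between origins over both runs (log2 fold change 0.21, SE 0.14, edgeR adjusted p = 0.277) and was called with run as a covariate in limma (log2 fold change 0.14, adjusted p = 0.0308) and in run A alone (log2 fold change 0.15, adjusted p = 0.0394).

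Of the 7 genes of deoxynucleotide supply, 5 were higher in YEJG-derived lines, none was lower and 2 did not pass. *Dctd* (ENSMUSG00000031562, chromosome 8 from 48552127 to 48606268, GRCm39), the dCMP deaminase that feeds thymidylate synthesis, had the smallest p of all members. It had 417 in YEJG-FP, 424 in YEJG-M1 and 414 in YEJG-M2, against 269 to 323 with a median of 293 in YEJH-derived lines, with 333 in YEJG and 263 in YEJH. The 3 YEJG-derived lines were close together and all above the YEJH-derived lines (log2 fold change 0.51, SE 0.058, edgeR adjusted p = 3.5e-05). *Rrm2*, the S-phase small subunit of ribonucleotide reductase, had 5175 in YEJG-FP, 4732 in YEJG-M1 and 4509.9 in YEJG-M2. YEJH-derived lines had 4867 to 5343 with a median of 5085, and the parental lines 5899 in YEJG and 5195 in YEJH. The origins overlapped and the difference did not pass (log2 fold change -0.091, SE 0.038, edgeR adjusted p = 0.0738), although it did without YEJG-FP (adjusted p = 0.0196). *Rrm2b*, the p53-inducible small subunit, had 293 in YEJG-FP, 202 in YEJG-M1 and 183 in YEJG-M2, so that YEJG-FP stood apart from all other lines. In YEJH-derived lines it ran from 173 to 211 with a median of 199, with 168 in YEJG and 153 in YEJH (log2 fold change 0.19, SE 0.11, edgeR adjusted p = 0.201), and it passed without YEJG-M2 (adjusted p = 0.0471).

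The large subunit gene *Rrm1* was higher in YEJG-derived lines (log2 fold change 0.21, SE 0.053, edgeR adjusted p = 0.00706), and so was *Dut*, which removes dUTP (log2 fold change 0.24, adjusted p = 0.00285). *Tyms*, the thymidylate synthase, was called at 0.14 (adjusted p = 0.0458), and this call ended with single lines left out, at adjusted p = 0.0704 without YEJG-M1, 0.177 without YEJG-M2, 0.0633 without YEJH-FP2, 0.0759 without YEJH-M4 and 0.0667 without YEJH-M5. *Dctpp1* (ENSMUSG00000042462, chromosome 7 from 126856127 to 126859893), the dCTP pyrophosphatase, is given by line because its YEJG-FP level stood far above that of both YEJG lung lines, a choice made after its values were seen. It had 869 in YEJG-FP, 583 in YEJG-M1 and 589 in YEJG-M2, against 455 to 525 with a median of 487 in YEJH-derived lines, with 857 in YEJG and 617 in YEJH. YEJG and YEJG-FP shared the high level, and both YEJG lung lines were nearer to YEJH-derived lines (log2 fold change 0.47, SE 0.085, edgeR adjusted p = 0.000832).

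Of the 4 genes of deoxynucleoside salvage and dNTP hydrolysis, *Tk1* and *Dck* were lower in YEJG-derived lines and 2 did not pass. *Tk1* (ENSMUSG00000025574, chromosome 11 from 117702770 to 117717042, GRCm39), the cytosolic thymidine kinase of dividing cells, had 3929.5 in YEJG-FP, 2429 in YEJG-M1 and 2556 in YEJG-M2. The 10 YEJH-derived lines ran from 4468 to 5224 with a median of 4842, and the parental lines had 4153 in YEJG and 5513 in YEJH. Both YEJG lung lines were far below every other line, and YEJG-FP was also below the YEJH-derived lines (log2 fold change -0.72, SE 0.10, edgeR adjusted p = 0.000166). Without YEJG-M1 the log2 fold change of *Tk1* was -0.61, and without YEJG-FP it was -0.97; both passed. In fat-pad lines alone, 1 line against 5, it was -0.33. *Tk1* overlaps other annotated genes along its whole length, including a read-through model. Some of its reads may thus have been set aside as ambiguous by the counting program, which makes its level less certain. *Tk2*, the mitochondrial thymidine kinase, had 193 in YEJG-FP, 198 in YEJG-M1 and 208 in YEJG-M2, against 203 to 265 with a median of 222 in YEJH-derived lines, with 211 in YEJG and 218 in YEJH. The origins of *Tk2* overlapped and it did not pass (log2 fold change -0.18, SE 0.07, edgeR adjusted p = 0.0527), but did in 6 alternatives, among them DESeq2 (adjusted p = 0.0443), limma on single libraries (0.0408) and the fit without YEJH-M3 (0.0427). *Dck*, the deoxycytidine kinase, was lower (log2 fold change -0.17, SE 0.049, edgeR adjusted p = 0.0153), a call that ended at adjusted p = 0.136 without YEJG-M1 and 0.069 without YEJG-M2. *Samhd1*, which hydrolyses dNTPs, did not pass (log2 fold change -0.12, adjusted p = 0.226).

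Of the 3 genes of nucleoside release and transport, *Slc29a1* was higher in YEJG-derived lines, *Nt5e* was lower and *Slc29a2* did not pass. *Slc29a1* (ENSMUSG00000023942, chromosome 17 from 45896125 to 45910733, GRCm39), the equilibrative nucleoside transporter ENT1, varied most of all members. It had 2108 in YEJG-FP, 2772 in YEJG-M1 and 2657 in YEJG-M2, with SDs between repeats of 188, 241 and 149.7. YEJH fat-pad lines had 1593, 1678, 1573, 1542 and 1619.8, and YEJH lung lines 1521, 986, 1166, 1181 and 1203, each in order of line number. The parental lines had 744 in YEJG and 643 in YEJH. The parental lines were thus below all 13 derived lines, the YEJH-derived lines were in between, and the YEJG-derived lines were highest (log2 fold change 0.90, SE 0.14, edgeR adjusted p = 0.00023). *Slc29a2*, which encodes the related transporter ENT2, had 206 in YEJG-FP, 127 in YEJG-M1 and 146 in YEJG-M2, against 146 to 208 with a median of 168 in YEJH-derived lines, with 159 in YEJG and 173 in YEJH. Its origins overlapped (log2 fold change -0.12, SE 0.13, edgeR adjusted p = 0.505), and without YEJG-FP it passed as lower in YEJG-derived lines (adjusted p = 0.0166). In fat-pad lines alone its log2 fold change was 0.32. *Nt5e* (ENSMUSG00000032420, chromosome 9 from 88209089 to 88254146) encodes CD73, the cell-surface enzyme that turns AMP into adenosine, and is given by line because it was the second most variable, a choice made after its values were seen. It had 1410.2 in YEJG-FP, 541 in YEJG-M1 and 814 in YEJG-M2, against 1148 to 1938 with a median of 1692 in YEJH-derived lines, with 598 in YEJG and 1373 in YEJH. YEJG, YEJG-M1 and YEJG-M2 were below every other line, and YEJG-FP was within the range of YEJH-derived lines (log2 fold change -0.83, SE 0.19, edgeR adjusted p = 0.00341). In fat-pad lines alone the log2 fold change of *Nt5e* was -0.30, and it was not called there.

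**Figure D3:**
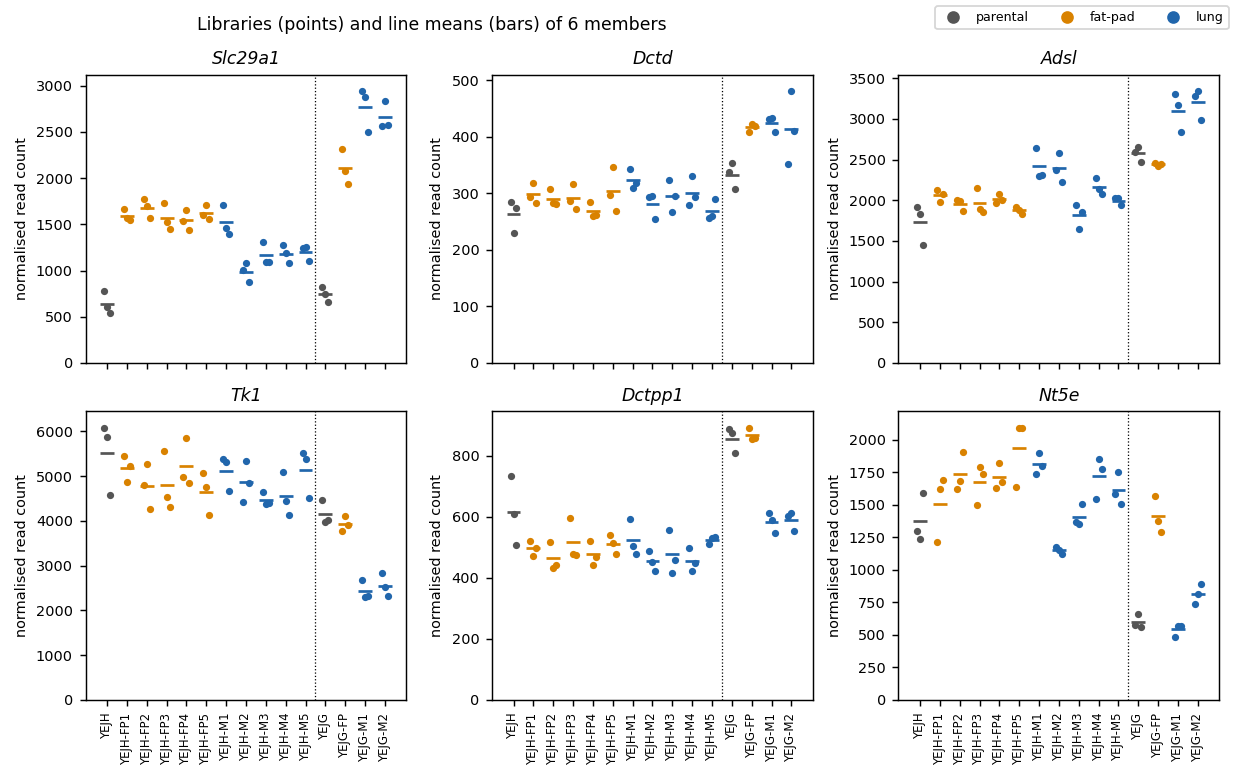
Normalised read counts, on an axis from 0, of *Slc29a1*, *Dctd*, *Adsl*, *Tk1*, *Dctpp1* and *Nt5e* in the 45 libraries (points) with the mean of each line (bar), coloured by site. The dotted line parts lines of YEJH origin, on the left, from those of YEJG origin. YEJG-M1 and YEJG-M2 are highest for *Slc29a1* and *Adsl* and lowest for *Tk1*, and both parental lines are lowest for *Slc29a1*.

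Of the 8 *de novo* purine genes, 5 were higher in YEJG-derived lines, none was lower and 3 did not pass. *Prps1* and *Prps2* make phosphoribosyl pyrophosphate, on which the purine ring is built. *Prps1* had 1176 in YEJG-FP, 1063 in YEJG-M1 and 1245 in YEJG-M2, against 972 to 1085 with a median of 1030.4 in YEJH-derived lines, with 1216 in YEJG and 941 in YEJH. YEJG-M1 was within the range of YEJH-derived lines, and the call (log2 fold change 0.16, SE 0.045, edgeR adjusted p = 0.0144) ended without YEJG-M2 (adjusted p = 0.124). *Prps2* was the steadiest member, with 1525 in YEJG-FP, 1324 in YEJG-M1 and 1410.3 in YEJG-M2, against 1349 to 1491 with a median of 1422 in YEJH-derived lines, with 1427 in YEJG and 1361 in YEJH, and did not differ beyond its error (log2 fold change -0.016, SE 0.039, edgeR adjusted p = 0.778). *Pfas*, which amidates the growing ring, had 2858 in YEJG-FP, 3031 in YEJG-M1 and 3132 in YEJG-M2, against 2080.3 to 2621 with a median of 2202 in YEJH-derived lines, with 2611 in YEJG and 1988 in YEJH. All YEJG-derived lines were above all YEJH-derived lines (log2 fold change 0.39, SE 0.054, edgeR adjusted p = 0.000147). *Paics*, the highest of the group per kb, had 6822 in YEJG-FP, 5762 in YEJG-M1 and 5550.2 in YEJG-M2, against 5535 to 6453 with a median of 6176 in YEJH-derived lines, with 6419 in YEJG and 6624 in YEJH. Its origins overlapped (log2 fold change -0.021, SE 0.051, edgeR adjusted p = 0.777), and *Ppat*, which shares 298 bp of chromosome 5 with it head to head, did not pass either (log2 fold change 0.05, adjusted p = 0.453). Reads over the shared 298 bp could not be told apart if counting ignored strand.

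*Adsl* (ENSMUSG00000022407, chromosome 15 from 80832518 to 80855148, GRCm39), which releases fumarate both in making the ring and in making AMP, is given by line as the purine gene with the largest difference, a choice made after its values were seen. It had 2442 in YEJG-FP, 3102 in YEJG-M1 and 3203 in YEJG-M2, against 1815 to 2415 with a median of 2006 in YEJH-derived lines, with 2574 in YEJG and 1733 in YEJH. YEJG-FP was just above the highest YEJH-derived lines, which were YEJH-M1 and YEJH-M2, and the YEJG lung lines were well above (log2 fold change 0.45, SE 0.082, edgeR adjusted p = 0.000928). *Atic*, which closes the purine ring, was also higher (log2 fold change 0.24, SE 0.041, edgeR adjusted p = 0.000663) without overlap. *Gart*, which has several steps of the pathway, was called at 0.15 (adjusted p = 0.0195), and the call ended at adjusted p = 0.154 without YEJG-FP and 0.0804 without YEJG-M2.

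Of the 4 genes of the guanine branch and adenine salvage, only *Impdh2* was called, as higher in YEJG-derived lines. *Impdh1* and *Impdh2* encode IMP dehydrogenase, which commits IMP to GMP. *Impdh2* had 3942 in YEJG-FP, 4379 in YEJG-M1 and 4245 in YEJG-M2, against 2963 to 3477 with a median of 3169 in YEJH-derived lines, with 4458 in YEJG and 2991 in YEJH, without overlap between the derived lines (log2 fold change 0.38, SE 0.052, edgeR adjusted p = 0.000137). Within run A the YEJG-derived line means of *Impdh2* ran from 4253 to 4708 and the YEJH-derived from 3133 to 3713. Within run B they ran from 3320.2 to 4014 and from 2748 to 3129, so the origins did not overlap in either run. *Impdh1* had 1015 in YEJG-FP, 669 in YEJG-M1 and 750.0 in YEJG-M2, against 724 to 959 with a median of 827 in YEJH-derived lines, with 889.5 in YEJG and 727 in YEJH. It was highest in YEJG-FP and lowest in YEJG-M1, and the origins did not differ beyond the error (log2 fold change -0.032, SE 0.10, edgeR adjusted p = 0.825). *Aprt*, the adenine salvage enzyme, had 2906 in YEJG-FP, 3163 in YEJG-M1 and 3411 in YEJG-M2, against 2974 to 3663 with a median of 3262 in YEJH-derived lines, with 3586 in YEJG and 3136 in YEJH, and did not pass (log2 fold change -0.086, SE 0.047, edgeR adjusted p = 0.168). *Gmps*, the GMP synthetase, did not pass (log2 fold change 0.073, adjusted p = 0.103), but did with the library of YEJG-M1 repeat 1 left out (adjusted p = 0.0385).

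Of the 4 folate one-carbon genes, 3 were higher in YEJG-derived lines and *Shmt1* did not pass. *Shmt2*, the mitochondrial serine hydroxymethyltransferase, had 3484 in YEJG-FP, 3622 in YEJG-M1 and 3658 in YEJG-M2, against 2374 to 3008 with a median of 2739 in YEJH-derived lines, with 3239 in YEJG and 2477 in YEJH. The derived lines of the origins did not overlap (log2 fold change 0.39, SE 0.061, edgeR adjusted p = 0.000334). *Shmt1*, its cytosolic counterpart, had 1609.7 in YEJG-FP, 1059 in YEJG-M1 and 1338 in YEJG-M2, against 1070.3 to 1281 with a median of 1187 in YEJH-derived lines, with 1512 in YEJG and 1206 in YEJH. YEJG-M1 was below all YEJH-derived lines and YEJG-FP above them, and *Shmt1* did not pass (log2 fold change 0.18, SE 0.085, edgeR adjusted p = 0.103), and it did without YEJG-M1 (adjusted p = 0.00443) and with limma, run as a covariate included (adjusted p = 0.0143). *Mthfd1*, the cytosolic enzyme that makes formyl-tetrahydrofolate for purines, had 4316 in YEJG-FP, 4379.5 in YEJG-M1 and 4286 in YEJG-M2, against 3491 to 3768 with a median of 3547 in YEJH-derived lines, with 4556 in YEJG and 3369 in YEJH. *Mthfd2*, the mitochondrial enzyme, had 1828 in YEJG-FP, 1855 in YEJG-M1 and 1874 in YEJG-M2, against 1088 to 1626 with a median of 1376 in YEJH-derived lines, with 2251 in YEJG and 1310.0 in YEJH. For both, all derived lines of YEJG were above all of YEJH, at log2 fold changes of 0.27 (SE 0.034, edgeR adjusted p = 8.14e-05) and 0.42 (SE 0.087, adjusted p = 0.00194). The YEJH lung lines spread widely in *Mthfd2*, from 1088 in YEJH-M2 to 1626 in YEJH-M5.

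Levels within 8 isozyme or functional pairs were compared per kb of exon, as ratios in each line. In 7 pairs the order was the same in all 15 lines. *Rrm2* exceeded *Rrm2b* most (mean ratio 78.3, 52.4 to 104 over the lines), followed by *Tk1* over *Tk2* (11.3, 6.7 to 13.7) and *Impdh2* over *Impdh1* (8.36, 6.15 to 12.9). *Slc29a1* exceeded *Slc29a2* (6.38, 2.51 to 14.7), *Shmt2* exceeded *Shmt1* (3.75, 3.24 to 5.39), *Prps1* exceeded *Prps2* (3.07, 2.8 to 3.61), and *Mthfd1* exceeded *Mthfd2* (1.89, 1.51 to 2.46). *Nme1* was above *Nme2* in 9 of 15 lines, an order that rests on the runs. The *Rrm2* to *Rrm2b* ratio was lowest in YEJG-FP and highest in both parental lines. The *Tk1* to *Tk2* ratio was 6.7 in both YEJG lung lines and at least 10.5 in every YEJH-derived line. The *Slc29a1* to *Slc29a2* ratio ranged from 6.37 to 7.13 in YEJH fat-pad lines and from 3.79 to 5.4 in YEJH lung lines, without overlap. Over all 13 derived lines this ratio did not pass between sites (two-sided exact permutation p = 0.711). The log2 ratios were set between origins and between sites by two-sided exact permutation tests over the 13 derived lines, 16 tests in all. Between origins 6 of 8 had p under 0.05, from 0.007 (*Slc29a1* to *Slc29a2*, and *Prps1* to *Prps2*) to 0.049 (*Shmt2* to *Shmt1*). With Benjamini-Hochberg adjustment over the 8 pairs the *Shmt2* to *Shmt1* ratio did not pass between origins (adjusted exact p = 0.0653), and the other 5 did, at up to 0.0336. Between sites only *Tk1* to *Tk2* had an exact p under 0.05 (0.0297), which did not pass adjusted (0.238), and whose 2 lowest values are those of the YEJG lung lines.

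**Figure D4:**
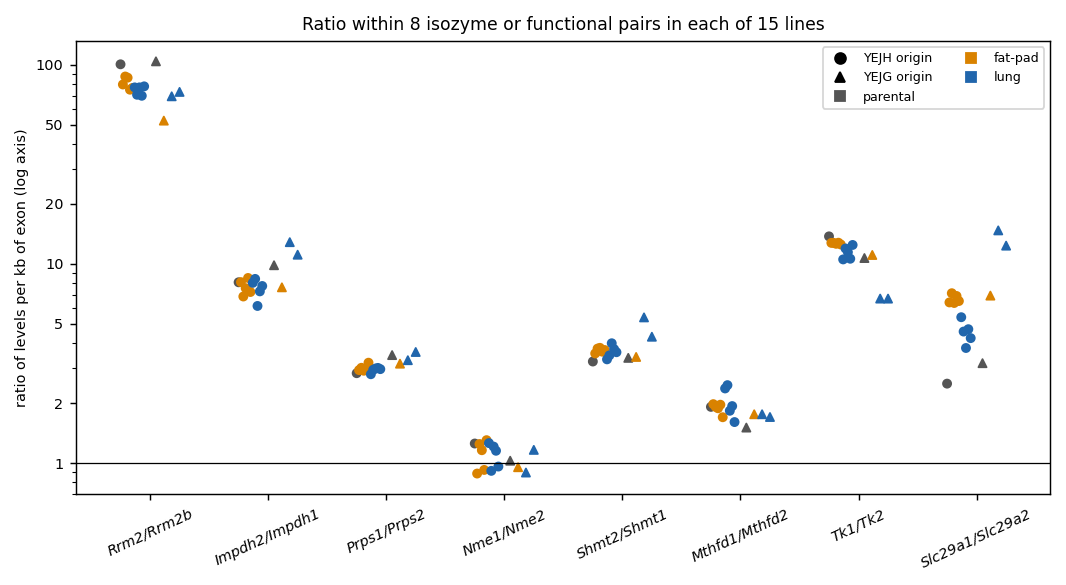
Ratio of the levels per kb of exon of the genes of each pair, on a log axis, in the 15 lines (circles of YEJH origin, triangles of YEJG origin, coloured by site). The horizontal line marks equal levels, which only *Nme1* and *Nme2* cross.

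Site was compared next, 7 lung against 6 fat-pad lines over both origins, without origin as a covariate. No member passed, as no gene of all 15056 tested did (0.0% with edgeR). DESeq2 called 18 genes and limma 75 to 86, none of them a member. With edgeR 3 members and 784 genes had an unadjusted p under 0.05. The median log2 fold change of the members was -0.005, and the members ran from -0.37 (*Nt5e*) to 0.24 (*Adsl*). *Aprt* had the smallest p (log2 fold change 0.13, SE 0.044, edgeR adjusted p = 0.909, unadjusted p = 0.0139). Its lung lines ran from 3163 to 3663 with a median of 3335, and its fat-pad lines from 2906 to 3221 with a median of 3093. *Paics* followed (log2 fold change -0.10, SE 0.045, edgeR adjusted p = 0.909), with 5535 to 6394 in lung lines and 5930.0 to 6822 in fat-pad lines. In neither gene were the sites apart, and the lines of lung and fat pad overlapped for all 37 members, as for nearly all genes (0.259% did not). Taking the SEs, a site difference of *Slc29a1* (-0.046, SE 0.24) or *Tk1* (-0.20, SE 0.18) was much less sharply bounded than that of *Prps2* (-0.028, SE 0.036). These SEs include the spread between origins, since origin was not in this fit.

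Within YEJH-derived lines alone, 5 lung against 5 fat-pad lines, again no member passed (0.0117% of all genes, which is 2 genes, did), and 2 had an unadjusted p under 0.05. The largest difference was that of *Slc29a1* (log2 fold change -0.41, SE 0.085, edgeR adjusted p = 0.212, unadjusted p = 0.000372). All 5 fat-pad lines were above all 5 lung lines in its line means, with 1542 against 1521 as the nearest values, a gap below the SD between repeats of those lines (105 in YEJH-FP4 and 166 in YEJH-M1). *Aprt* was the other (log2 fold change 0.12, SE 0.044, edgeR adjusted p = 0.562). Within YEJG-derived lines, the 2 lung lines were set against YEJG-FP alone, whose own spread was taken from the other groups. There 11 members passed, against 17.1% of all genes (8.46% higher and 8.66% lower), 1 higher and 10 lower in the lung lines. *Ctps2* was the member that was higher (log2 fold change 0.44). The lower ones were *Tk1* (-0.66), *Ppat* (-0.36), *Dctpp1* (-0.57), *Rrm2b* (-0.60), *Nt5e* (-1.05), *Nme1* (-0.23), *Slc29a2* (-0.58), *Impdh1* (-0.51), *Paics* (-0.26) and *Shmt1* (-0.42), each on the log2 scale. Their edgeR adjusted p ran from 0.000973 (*Tk1*) to 0.0434 (*Shmt1*). In run B alone 6 members passed: *Rrm2b*, *Nme1*, *Slc29a2*, *Impdh1*, *Paics* and *Shmt1* did not, and *Impdh2* did. The mammary marker sum was also lower in both lung lines than in YEJG-FP, and its part was not tested.

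The difference between these site effects was tested as an interaction of site and origin. It passed for 7 members, 2 positive and 5 negative, against 13.3% of all 17042 genes tested, 6.74% positive and 6.61% negative. The site difference was more positive in YEJG-derived lines for *Slc29a1* (by 0.78 on the log2 scale, SE 0.19, edgeR adjusted p = 0.0165) and *Ctps2* (0.48, SE 0.11, adjusted p = 0.0111). For *Slc29a1* the lung lines of YEJG were above YEJG-FP, by 0.36 (SE 0.17, adjusted p = 0.164), and those of YEJH below their fat-pad lines. It was more negative for *Tk1* (-0.63, SE 0.11, adjusted p = 0.00422), *Slc29a2* (-0.71), *Rrm2b* (-0.67), *Dctpp1* (-0.54) and *Ppat* (-0.31). For all 7, YEJG-FP is the only fat-pad line of its origin, so the test rests on that line. *Rrm2b* and *Slc29a2* did not pass in run B alone, and *Dctpp1* did not in run A alone, where *Nt5e* did.

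Derived lines were then set against their own parental line, which is a single line in each case and was assumed to vary like the other groups. Against YEJH, 2 members passed (2.65% of all genes, 1.07% higher and 1.58% lower), both higher in the 10 derived lines: *Slc29a1* (log2 fold change 1.14, SE 0.16, edgeR adjusted p = 0.00333) and *Samhd1* (log2 fold change 0.48, SE 0.12, edgeR adjusted p = 0.0475). *Samhd1* had 600.3 normalised counts in YEJH and 752 to 1022 with a median of 832 in YEJH-derived lines, all above it. Its call ended at adjusted p = 0.0747 without YEJH-FP1, 0.0786 without YEJH-FP2, 0.0765 without YEJH-FP3, 0.0537 without YEJH-FP4, 0.0723 without YEJH-FP5, 0.0607 without YEJH-M2 and 0.0653 without YEJH-M4, and in run B alone, and *Dctpp1* passed as lower without YEJH-M1 (adjusted p = 0.0467). Against YEJG, 5 members passed (21.4% of all genes, 10.2% higher and 11.2% lower). *Slc29a1* (log2 fold change 1.74, SE 0.17, edgeR adjusted p = 2.62e-05) and *Dctd* (0.32, adjusted p = 0.0409) were higher in the 3 derived lines. *Tk1* (-0.54, adjusted p = 0.00138), *Rrm2* (-0.31, adjusted p = 0.0017) and *Dctpp1* (-0.37, adjusted p = 0.00999) were lower. The calls of *Dctd* and *Dctpp1* ended without YEJG-M1 (adjusted p = 0.0938 and 0.0809) and without YEJG-M2 (0.0671 and 0.0621). Without YEJG-FP, *Ctps2* passed as higher (0.0157) and *Nme1* as lower (0.0126). *Nt5e* passed as higher without YEJG-M1 (0.033), and without YEJG-M2 *Rrm2b* passed as higher (0.0185) and *Aprt* as lower (0.0344). *Slc29a1* was thus called higher than the parental line in both origins, and all 13 derived lines were above both parental lines.

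The parental lines themselves differed in 8 members, against 6.65% of all 17110 genes (2.43% higher in YEJG and 4.22% lower), with 1 line on each side and the spread taken from the derived lines. In YEJG, 7 were higher: *Mthfd1* (log2 fold change 0.46, SE 0.065, edgeR adjusted p = 0.00266), *Impdh2* (0.60), *Cad* (0.52), *Dctpp1* (0.51), *Mthfd2* (0.80), *Adsl* (0.60) and *Pfas* (0.42). *Nt5e* was lower (-1.22, SE 0.30, adjusted p = 0.0335). Of the 37 members, 31 had a higher estimate in YEJG, with a median log2 fold change of 0.27, against -0.020 over all genes. These libraries are separate from those of the derived lines, but the derived lines descend from these parental lines. The comparison is thus not an independent repeat of that between derived lines. The test used the spread of the derived lines, and *Pfas* lost its call in 4 of 5 alternatives. In run A alone *Dctpp1*, *Adsl* and *Mthfd2* lost theirs too (adjusted p = 0.219, 0.135 and 0.145), which left 4 of 8. *Dctd*, 0.35 (adjusted p = 0.119), and *Slc29a1*, 0.24 (adjusted p = 0.499), did not pass between parental lines.

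Lines of the same origin and site were compared with the repeats as replicates, so the tests here concern technical spread. Among the 5 YEJH lung lines 15 members differed, against 31.4% of all genes, and among the 5 YEJH fat-pad lines none did (1 at an unadjusted p under 0.05), against 1.8%, with edgeR. Without YEJH-M3 repeat 2, 14 members differed among the lung lines and *Samhd1* did not (adjusted p = 0.214). *Mthfd2* had the smallest p among lung lines (edgeR adjusted p = 2.09e-05), followed by *Nt5e* (3.14e-05), *Adsl* (0.00011) and *Slc29a1* (0.000426). YEJH-M2 was lowest of the lung lines in *Mthfd2*, *Nt5e* and *Slc29a1*, at 1088, 1148 and 986 normalised counts. YEJH-M1 was near the fat-pad lines in *Slc29a1* (1521) and highest of the lung lines in *Rrm1* (6593), *Dut* (1876) and *Umps* (2469.7). Between YEJG-M2 and YEJG-M1, 3 members passed (13.4% of all genes, 6.63% higher), all higher in YEJG-M2: *Nt5e* (0.55, adjusted p = 0.000263), *Shmt1* (0.33) and *Prps1* (0.22).

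The runs were compared over all libraries with line as a term. Between them 5 members passed, against 15.9% of all genes. *Nme2* was lower in run B by far the most (log2 fold change -1.50, SE 0.031, edgeR adjusted p = 1.3e-31), and *Impdh2* (-0.29) and *Tk1* (-0.16) were lower too. *Dhodh* (0.12) and *Dctd* (0.11) were higher in run B. In run A every library had at least 822828 reads set aside by the counting program for low alignment quality, and in run B none. This difference was not tested as a cause. Between origins 21 members were called in run A alone and 21 in run B alone. Over both runs 22 were, where 40.8% of all genes were called.

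**Figure D5:**
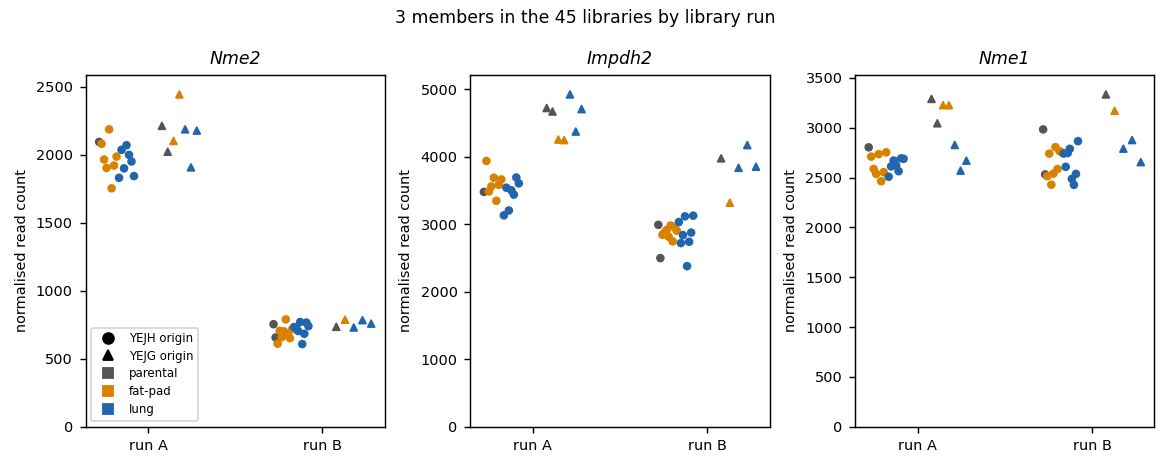
Normalised read counts, on an axis from 0, of *Nme2*, *Impdh2* and *Nme1* in the 22 libraries of run A and the 23 of run B (circles of YEJH origin, triangles of YEJG origin, coloured by site). Every run A library is above every run B library in *Nme2*, and in *Impdh2* and *Nme1* the runs overlap.

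Other genes of these pathways were counted in lists that hold none of the members. Between origins, 9 of 16 other folate and serine genes tested were higher in YEJG-derived lines and none lower, with *Psat1* (0.88), *Slc25a32* (0.60), *Mthfd1l* (0.26) and *Aldh1l2* (2.06) of the smallest p. *Psat1* makes phosphoserine, the source of serine, and the other named genes carry or use folate in mitochondria. Of 25 other purine genes tested, 6 were higher and 2 lower, led by the AMP deaminase *Ampd3* (1.70), *Ak4* (1.59), *Prpsap1* (-0.64) and the xanthine dehydrogenase *Xdh* (2.33). Of 19 other pyrimidine genes, 6 were higher and 5 lower, led by *Upb1* (-4.36), *Nt5c* (-0.99), the thymidylate kinase *Dtymk* (0.31) and the cytidine deaminase *Cda* (-1.47). *Upb1*, *Nt5c* and *Cda* degrade or deaminate pyrimidines. Of 3 other nucleoside transporters tested, 2 were lower, *Slc29a4* (-4.26) and *Slc29a3* (-0.78). The 5 transporters of this list summed to only 47.6 to 137 normalised counts per line. *Upb1* and *Slc29a4* were too low to be tested with the libraries kept apart, so their large fold changes rest on low counts. Each value here is a log2 fold change from the same edgeR test, and the share of all genes called was 40.8%.

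Of 24 S-phase and mitosis genes, 5 were higher in YEJG-derived lines and 2 lower, with *Mki67* (-0.23) and *E2f1* (-0.22) lower and *Top2a* (0.22) and *Mcm6* (0.22) higher. Their summed level was 82754 to 87785 normalised counts in YEJG-derived and 78593 to 87033 in YEJH-derived lines. The overlap rests on YEJH-M1, and the other 9 YEJH-derived lines had at most 81049. Across the 15 lines, which share parents and libraries, the members' Pearson correlation with the mean standardised log2 level of these 24 genes ran from -0.497 (*Tk1*) to 0.801 (*Pfas*) with a median r of 0.33, and was 0.786 for *Adsl* and 0.722 for *Umps*. Of 11 ATF4 targets, 4 were higher and 3 lower, with *Asns* (0.45), *Slc3a2* (0.27) and *Vldlr* (2.05) higher and *Ddit4* (-0.82) lower. Of 12 p53 targets, 8 were lower and 1 higher in YEJG-derived lines, among them *Cdkn1a* (-0.92), *Trp53inp1* (-1.08) and *Ccng1* (-0.51) lower and *Sesn1* (0.99) higher. The part of cell division, ATF4 or p53 in the members' differences was not tested. In the site comparison no gene of these lists passed.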

How the data were processed

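RNA of 45 libraries from 15 *PyMT*+ mouse lines, prepared with the TruSeq RNA Library Prep kit v2 and sequenced on a NextSeq500, was counted per gene. The authors deposited raw read counts in a single table, made per the submitters' processing notes with FastQC, HISAT2, SAMtools 1.2 and HTSeq. Those notes label the build GRCh38, although the gene identifiers are mouse Ensembl identifiers. Whether counting used strand is not given in the sources used here. No library was pooled, and totals ran from 9723860 to 16943900 reads on genes. The 5 rows of unassigned read classes were left out.

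Names and positions came from GENCODE (GRCm39), which matched 50764 of 54838 identifiers (92.6%). Promoter windows came from RefSeq (GRCm38.p6). Counts were summed over the 3 technical repeats of each line, filtered with filterByExpr, scaled by TMM and tested with edgeR 4.0.16 quasi-likelihood tests (R 4.3.3), with Benjamini-Hochberg adjustment over all genes tested and a threshold of 0.05. Comparisons of lines of the same origin and site, and of the library runs, used the libraries kept apart. SEs were taken from the fold change and its F statistic. A normalised read count is a count divided by the library's TMM-scaled size relative to the mean. In the 13 derived lines origin was fitted with site as a covariate, and site was fitted alone, without origin. Origin as a covariate of site was an alternative. Comparisons with the parental lines share samples with one another. Alternatives were DESeq2 1.42.0, limma 3.58.1 on single libraries, other scaling and filters, each run alone, and lines or repeats left out. Comparing origins in fat-pad lines alone, and leaving out YEJH-M3 repeat 2, were chosen after seeing the data. The tests of site and origin were also run on simulated counts with known changes, whose levels and spread came from these data. No result above rests on that run.

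Repeats of a line were not duplicates: chi-square per degree of freedom between them was 2.76 to 113.7. Deviations of repeats with the same number correlated at 0.001 on average and those of the same run at 0.482. Lung and fat-pad lines of YEJH with the same number correlated at -0.033. No pairing by number was thus seen in expression, which cannot show whether lines came from the same mouse. The paper describes the lung cells as isogenic and formed after resection of the primary tumour. For its comparison it gives fewer mice than the 13 derived lines. Lines that share a mouse would not be independent, and the tests of site and origin did not take this into account.

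The members and lists were chosen with earlier results of these data known. Values by line are given for the 10 members of smallest p between origins, for both genes of 8 pairs, for the 2 of smallest p between sites and for the highest per kb of exon in each role group. Of 10 members that overlap another protein-coding gene, levels are less certain: *Ctps2*, *Nme1*, *Nme2*, *Tk1*, *Ppat*, *Gart*, *Paics*, *Impdh2*, *Shmt1* and *Shmt2*.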

Additional observations from a re-analysis of the deposited data

Results flagged for a closer look

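Single lines stood apart from the other 4 of their origin and site in 6 of 74 groups examined by Dixon's test, where chance gives about 1 in 20, or 3.7. Among YEJH lung lines, YEJH-M1 was lowest in *Cmpk1* (1073 normalised counts, with 1377 the nearest) and highest in *Ctps2* (618, with 546 the nearest) and *Dut* (1876, with 1651 the nearest). YEJH-M3 was highest in *Samhd1* (1022, with 824 the nearest). Its repeats had 914, 1348 and 804, and without repeat 2, the library with the largest share of unassigned reads, its mean was 859. Among YEJH fat-pad lines, YEJH-FP4 was lowest in *Samhd1* (764, with 839.9 the nearest) and *Shmt1* (1118, with 1181 the nearest).

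The site difference (lung minus fat-pad, log2) differed between origins for 7 members, by the interaction term of edgeR with an adjusted p under 0.05. It was larger in YEJG-derived than in YEJH-derived lines by 0.78 for *Slc29a1* and 0.48 for *Ctps2*. For the other 5 it was smaller, with differences of -0.71 for *Slc29a2*, -0.67 for *Rrm2b*, -0.63 for *Tk1*, -0.54 for *Dctpp1* and -0.31 for *Ppat*. All rest on YEJG-FP as the single fat-pad line of YEJG origin.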

How the results depend on the processing

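No member passed between lung and fat-pad lines under any of 30 alternatives, and between 19 and 26 passed between origins under 29. In the main fit between origins 22 members passed, where 40.8% of all genes did. With the technical repeat number as a replicate block, 26 members passed between origins and 0 between sites. Of the 22 members called between origins, 16 kept the call under all 29 alternatives, and *Nme1*, *Tyms*, *Dck*, *Gart*, *Prps1* and *Nt5e* lost it under 1 or more. In run A alone 3 members passed between YEJG-derived lines and YEJG, and 4 between the parental lines. In run B alone 1 passed between YEJH-derived lines and YEJH, and 6 between YEJG lung lines and YEJG-FP. With single lines left out, 1 to 3 passed between YEJH-derived lines and YEJH. The cause was not tested. The interaction held 5 to 8 members under 5 alternatives, with 7 in the main fit, where 13.3% of all genes passed. None of the 22 members called between origins changed sign. *Ctps2* and *Slc29a2*, not called over all lines, were called without YEJG-FP (0.30 and -0.40, log2). In fat-pad lines alone, where YEJG-FP is the only YEJG line, the signs were opposite (-0.17 and 0.32). Leaving out YEJH-M3 repeat 2, chosen after seeing the data, kept every count within 1.5 times. There were 3 YEJG-derived lines, 1 YEJG fat-pad line and 1 parental line of each origin.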
